A study of Homo sapiens with 2 samples.

Results

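The matrix metalloproteinases are zinc-dependent enzymes that cut the proteins of the extracellular matrix. Accessible chromatin was examined at 10 of their genes in G401, a SMARCB1-deficient cell line established from a malignant rhabdoid tumor of kidney. The members were MMP1, MMP3, MMP10, MMP13, MMP2, MMP9, MMP14, MMP15, MMP16 and MMP24, out of 20163 protein-coding genes annotated on the main chromosomes. They were chosen by name, with earlier results of these data known, and each was represented by every peak inside its gene body or within 10 kb of its transcription start site (TSS). These loci spanned 637 kb and held 50 peaks in a library from DMSO-treated cells and 77 in a library from MAK683-treated cells, of 114060 and 161184 peaks in all. Overlapping peaks of the libraries merged into 94 regions.

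Cells were treated for 3 days with DMSO, the solvent, or with 3 µM MAK683. This compound occupies EED, a core subunit of the Polycomb complex PRC2, and so prevents methylation of histone H3 lysine 27. Open chromatin was profiled by ATAC-seq with paired 150 bp reads, a method that uses Tn5 transposase to insert adapters into accessible DNA. There was 1 library per group, so differences are between these libraries, no p-value was computed, and variation between cultures cannot be told apart from the treatment. Rhabdoid tumors are defined by loss of SMARCB1, a SWI/SNF remodelling subunit. No peak was called in either library over 669 kb of chromosome 22 that holds SMARCB1 and its neighbour MMP11, so an empty MMP11 locus was not read as closed chromatin. The DMSO library held 16598348 tags after filtering and the MAK683 library 18265284. A peak's height is its pileup, or extended tags covering the summit, per 1000000 of these tags (RPM), so that 1 tag was worth 0.0602 RPM in DMSO and 0.0547 RPM in MAK683. The lowest called peak held 6 tags in each library, and the median peak held 11 in DMSO and 10 in MAK683, over the whole series as well as at the member loci. The files give heights at called peaks only, so a region with a peak in 1 library was given no fold change.

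The family is commonly sorted by substrate and by where the enzyme sits. MMP1 and MMP13 are collagenases that cleave fibrillar collagen, MMP3 and MMP10 are stromelysins with a broad range of matrix substrates, and MMP2 and MMP9 are gelatinases that digest denatured collagen and the type IV collagen of basement membranes. MMP14, MMP15, MMP16 and MMP24 are membrane-type enzymes held at the cell surface, and MMP14 is known for activating the MMP2 proenzyme. These collagenase and stromelysin genes lie in a cluster on the long arm of chromosome 11, with MMP12, another family gene, between MMP3 and MMP13. Several of them are textbook targets of AP-1, the FOS and JUN transcription factor.

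Promoter sequence is shown for a member of each kind, MMP10 from the cluster and MMP14 from the scattered genes. The stretches are the 120 bases just before the annotated TSS in GRCh37, read 5′ to 3′ on the strand of the gene. Capitals mark matches on either strand. The motifs searched included the AP-1 site written TGANTCA and the TATA box in its form TATAAA, which binds the general transcription machinery. They also included the GC box known for binding SP1, written GGGCGG. The E-box, written CACGTG, was searched as well and had no match in either stretch. No marked matches overlapped.
MMP10, chr11:102651360-102651479, minus strand: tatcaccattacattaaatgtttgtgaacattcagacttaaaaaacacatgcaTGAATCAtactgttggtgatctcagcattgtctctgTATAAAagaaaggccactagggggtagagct
MMP14, chr14:23305674-23305793, plus strand: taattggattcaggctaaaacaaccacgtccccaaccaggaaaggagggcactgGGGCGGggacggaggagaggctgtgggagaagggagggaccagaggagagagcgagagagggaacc

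Counted from the TSS, the MMP10 stretch held an AP-1 match that began at base −67 and a TATA box that began at −31. The MMP14 stretch held a GC box that began at −66. In the 250 bases before the TSS, 4.72% of all 20163 protein-coding promoters held the AP-1 letters, 9.39% the TATA box and 58.6% the GC box. These matches describe the letters of the reference and say nothing of what was bound.

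The chromosome 11 cluster was nearly without peaks in DMSO and held several low ones in MAK683. The 4 cluster loci together held 2 DMSO peaks and 12 MAK683 peaks over 80.4 kb, or 2.49 and 14.9 peaks per 100 kb. Over all protein-coding loci the medians were 6.57 and 7.84 per 100 kb. The 13 regions of the cluster comprised 1 shared by both libraries, 1 called in DMSO only and 11 called in MAK683 only. Over the whole series, 45.9% of regions were called in MAK683 only and 25.1% in DMSO only. The MAK683 share of the cluster's peaks was 85.7% (95% Clopper-Pearson interval 57.2 to 98.2, n = 14 peaks), against 58.6% of all peaks. The 6 scattered loci held 48 and 65 peaks, a MAK683 share of 57.5% (47.9 to 66.8), and 26 of their 81 regions were shared. MMP2 and MMP24 pulled the scattered genes in opposite directions. Without MMP2 the other 5 held 47 and 37 peaks, a MAK683 share of 44.05% (33.2 to 55.3), and all members but MMP2 held 49 peaks in each library. Leaving out MMP24 instead gave 23 and 52 peaks at the other scattered loci, and 25 and 64 over the remaining members. Without both genes the remaining members held 24 and 36 peaks, a MAK683 share of 60% (46.5 to 72.4). These intervals cover counting error only and treat neighbouring peaks as independent.

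**Figure D1:**
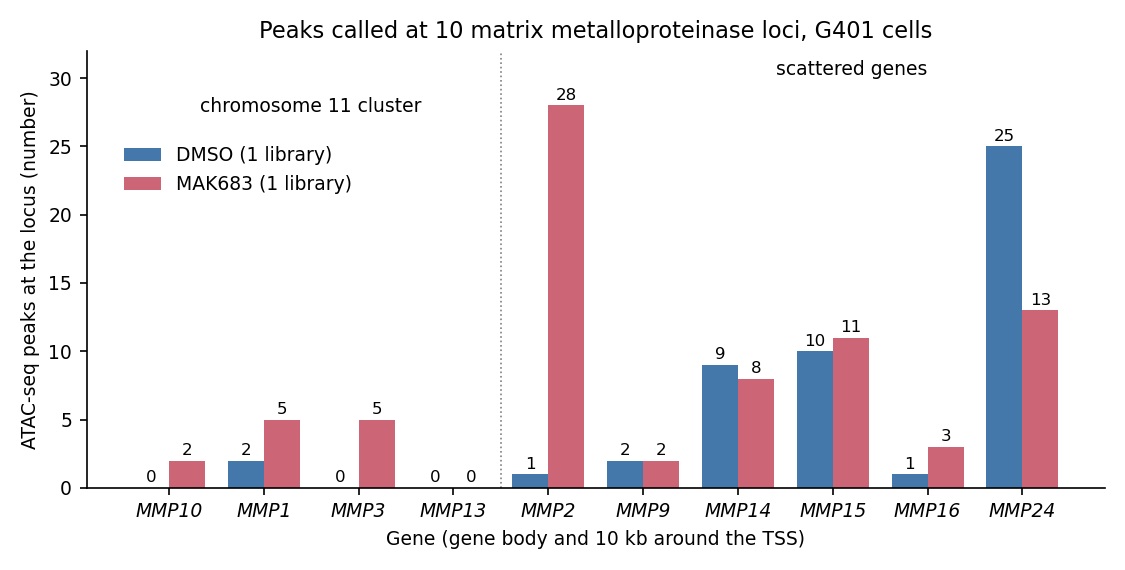
Number of ATAC-seq peaks (vertical axis) at each of the 10 loci, with the DMSO library in blue and the MAK683 library in red, 1 library each; the dotted line separates the chromosome 11 cluster from the scattered genes. MMP2 had 1 DMSO peak and 28 MAK683 peaks, MMP24 had 25 and 13, and MMP13 had none in either.

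Within the cluster the 4 genes differed. A locus was counted as gaining peaks when it had at least 2 times as many and at least 2 more in MAK683, a rule set after the values had been seen. MMP1, MMP3 and MMP10 met it, as did MMP2 and MMP16, which made 5 of 10 members against 17.8% of 20163 loci. None of the members met the same rule in the DMSO direction, against 14.1% of loci. These counts depended on low peaks. With peaks of at least 0.5 RPM, MMP3, MMP2 and MMP16 still met the rule for MAK683, against 11.8% of loci, and MMP24 met it for DMSO, against 19.5%. At a −log10 q of at least 5, MMP2 alone met it for MAK683, against 10.2%, and MMP24 again for DMSO, against 17.9%. MMP13 was the only member with no peak in either library, against 9.7% of loci.

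The stromelysin gene MMP3 had no peak in DMSO and 5 in MAK683. The peak at its TSS, chr11:102714209-102714436, held 11 tags in MAK683 (0.602 RPM, 95% exact Poisson interval 0.301 to 1.08) and was not called in DMSO. The other 4 lay in introns, between 3.00 and 6.85 kb after the TSS, and held 9 or 10 tags each. All 5 were therefore close to the lowest height at which peaks were called, and the TSS peak stood 1.67 times above the larger of the libraries' lowest heights, 0.361 RPM.

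MMP1, the interstitial collagenase gene, had 2 peaks in DMSO and 5 in MAK683. Its only shared region lay in an intron 3.58 kb after the TSS, with 12 tags in DMSO (0.723 RPM, 0.374 to 1.26) and 15 in MAK683 (0.821 RPM, 0.460 to 1.35), a log2 ratio of 0.18 (−0.91 to 1.28). Near the TSS the peaks were in MAK683 only, with summits at −242, −1966 and 1009 bases relative to it, of 9, 7 and 7 tags. The nearest of these was chr11:102669066-102669272. The other MAK683-only peak, of 11 tags, was intronic at 6.60 kb after the TSS. A DMSO-only peak of 11 tags had its summit at −10.4 kb, within 3 kb of the TSS of another annotated gene.

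MMP10, the second stromelysin gene, had no DMSO peak and 2 MAK683 peaks of 8 and 10 tags, at −5.89 and −6.33 kb from its TSS, between the TSS and the 3′ end of MMP1. Its promoter had no peak in either library. MMP13 lay in a stretch of 48.5 kb without any peak, chr11:102812065-102860579. The whole run from MMP7 to MMP13, chr11:102391239-102826461, which also holds family genes that are not members, had 14 DMSO and 50 MAK683 peaks, or 3.22 and 11.5 per 100 kb. Of its regions, 12 were shared, 2 were DMSO only and 38 MAK683 only, and the tallest peak had 16 tags in DMSO and 29 in MAK683. The 500 kb on either side of the member loci had ratios of MAK683 to DMSO peaks between 1.22 for MMP3 and 1.32 for MMP10 and MMP1, against 1.54 for chromosome 11. These flanks largely coincide.

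**Figure D2:**
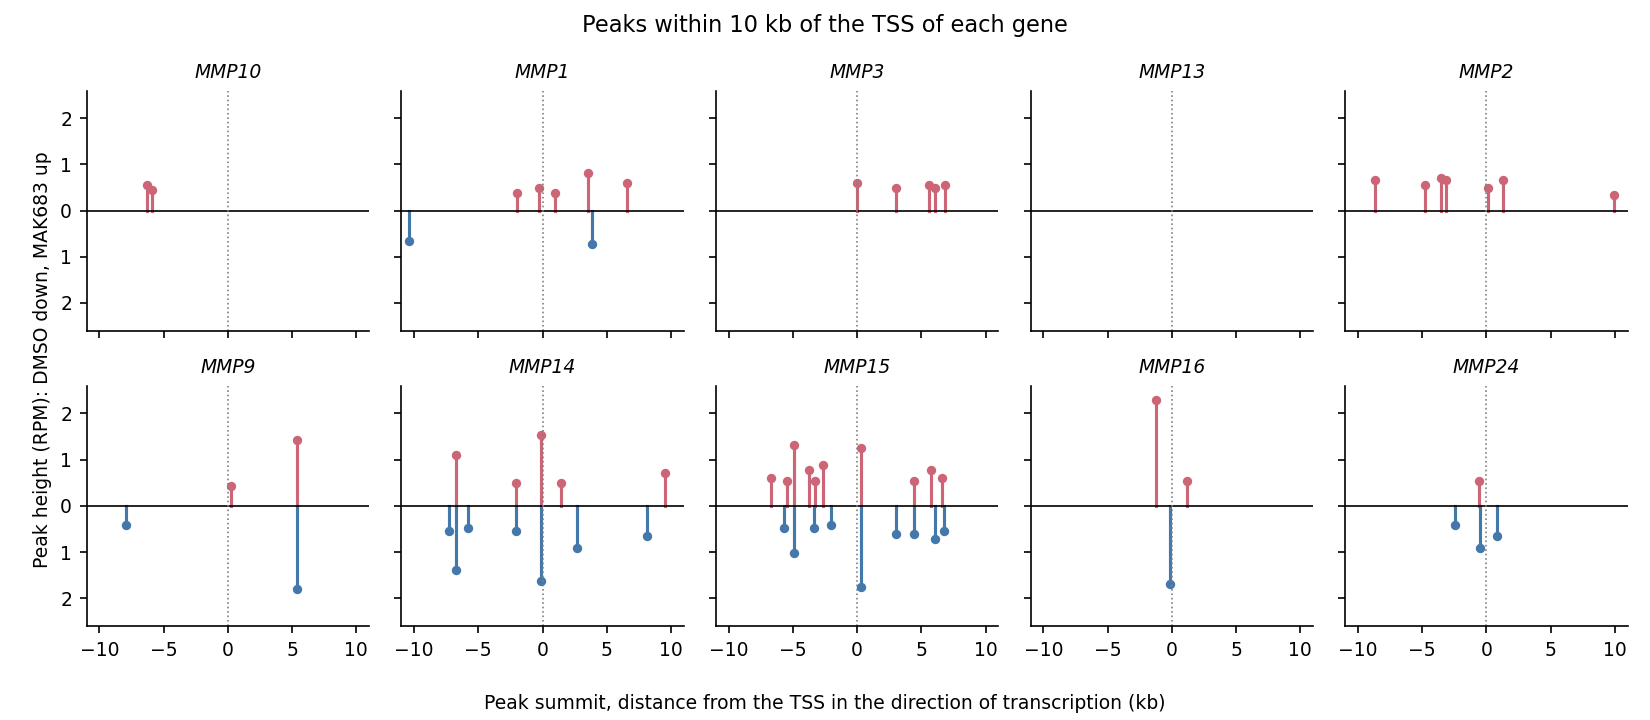
Peak height in RPM against the distance of the summit from the TSS in kb, for regions reaching into the 10 kb around each of the 10 starts; the tallest peak of each region points up for MAK683 (red) and down for DMSO (blue). MMP1, MMP3, MMP2 and MMP9 have a peak near the TSS in MAK683 only, MMP14, MMP15, MMP16 and MMP24 have one in both libraries, and MMP10 and MMP13 have none.

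MMP2, the gelatinase A gene, changed most in peak number. Its locus on the plus strand, chr16:55423612-55540603, includes long transcripts that start far upstream of the canonical TSS at position 55513110. It held 1 peak in DMSO and 28 in MAK683, a MAK683 share of 96.6% (82.2 to 99.9, n = 29 peaks). Of 20163 loci, 350 or 1.74% gained as many as 27 peaks. Of 1463 loci with at least as many peaks in all, 57 had as high a MAK683 share. The DMSO peak belonged to the single shared region, at −13.3 kb from the TSS and within 3 kb of the TSS of the antisense gene MMP2-AS1. There the height was 0.843 RPM in DMSO (14 tags, 0.461 to 1.42) and 0.821 RPM in MAK683 (15 tags, 0.460 to 1.35), a log2 ratio of −0.04 (−1.09 to 1.01).

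The 27 MAK683-only regions of MMP2 held 6 to 20 tags, with a median of 10 (0.547 RPM). This median equals that of all MAK683 peaks. Of these regions, 12 lay at or after the canonical TSS and 15 before it, of which 10 were within 20 kb. The peak at the TSS, chr16:55513039-55513249, had 9 tags (0.493 RPM, 0.225 to 0.935), and 2 taller ones of 12 tags stood at −3.13 and 1.28 kb from the TSS. The tallest peaks were in the 3′ part of the gene, where 8 of the regions lay 16 kb or more after the TSS. They reached 20 tags (1.09 RPM, 0.669 to 1.69) at 16045 bases, 17 tags (0.931 RPM) at 21.6 kb and 16 tags (0.876 RPM) at 22.6 kb, all in introns. The tallest stood 3.03 times above the 0.361 RPM lowest height. A peak of 15 tags at 26.6 kb lay in a UTR exon and within 3 kb of the TSS of LPCAT2, the next gene. In all, 8 of the 28 regions came within 3 kb of the TSS of another gene, and without these MMP2 kept 20 MAK683 peaks and no DMSO peak. An AP-1 match lay within 100 bases of the summit in 1 of the 27 (3.70%), against 6.29% of all 91532 MAK683-only regions. The peak with this match was the one next to the tallest. The reference bases around both summits are given on the plus strand of GRCh37, with the match in capitals.
MMP2 peak of 20 tags, chr16:55529105-55529205, plus strand: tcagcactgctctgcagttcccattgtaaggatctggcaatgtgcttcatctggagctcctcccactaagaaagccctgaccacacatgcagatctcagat
MMP2 peak of 13 tags, chr16:55529870-55529970, plus strand: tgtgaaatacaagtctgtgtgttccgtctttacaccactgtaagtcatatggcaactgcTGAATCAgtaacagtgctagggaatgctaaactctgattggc

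**Figure D3:**
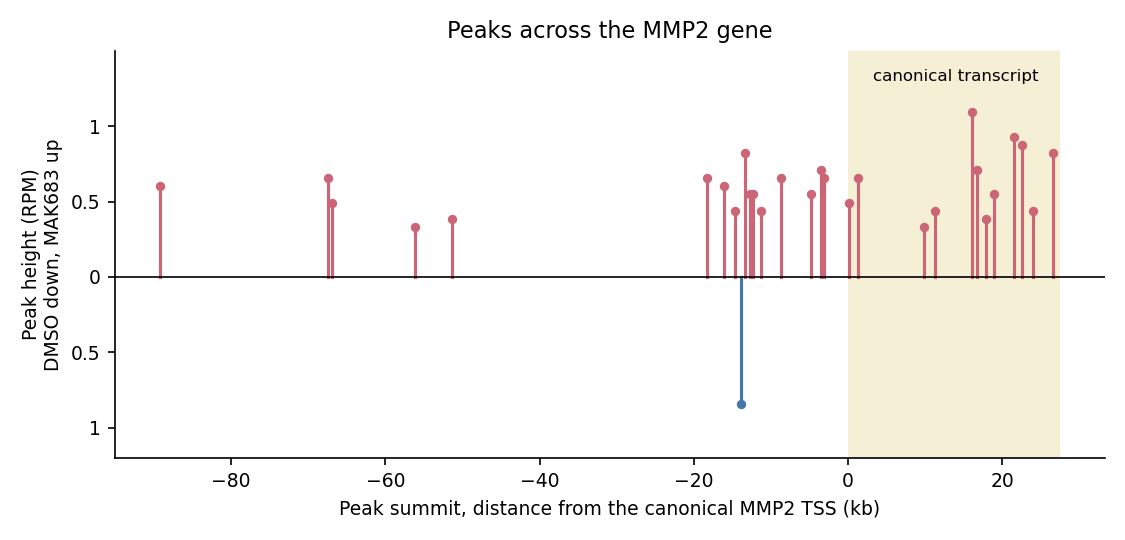
Peak height in RPM at MMP2 against the distance of the summit from the canonical TSS in kb, with MAK683 peaks (red) upward, the DMSO peak (blue) downward and the canonical transcript shaded. The DMSO library has 1 peak, of 0.843 RPM, and the MAK683 peaks reach 1.09 RPM inside the gene.

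The excess of MAK683 peaks at MMP2 was shared by its surroundings. The 500 kb on each side of the locus, with the locus left out, held 7 DMSO and 89 MAK683 peaks, a ratio of 12.7 against 1.15 for chromosome 16 and a median of 1.04 over the flanks of all genes. Of 13911 genes with at least as many flank peaks, 50 or 0.359% had as high a MAK683 share, and neighbouring genes share these flanks. Counted in 100 kb bins over 1000 kb on either side of the TSS, 26 peaks in DMSO compared with 177 in MAK683. MAK683 had more peaks in 15 of 20 bins and fewer in 1, and 13 bins were empty in DMSO against 4 in MAK683. At the 5 shared regions of the flanks the median log2 height ratio was 0.39, against −0.33 over all 57983 shared regions. MMP15, on the same chromosome arm, had flanks with a ratio of 1.28. The number of copies of each chromosome segment in these cells was not measured.

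**Figure D4:**
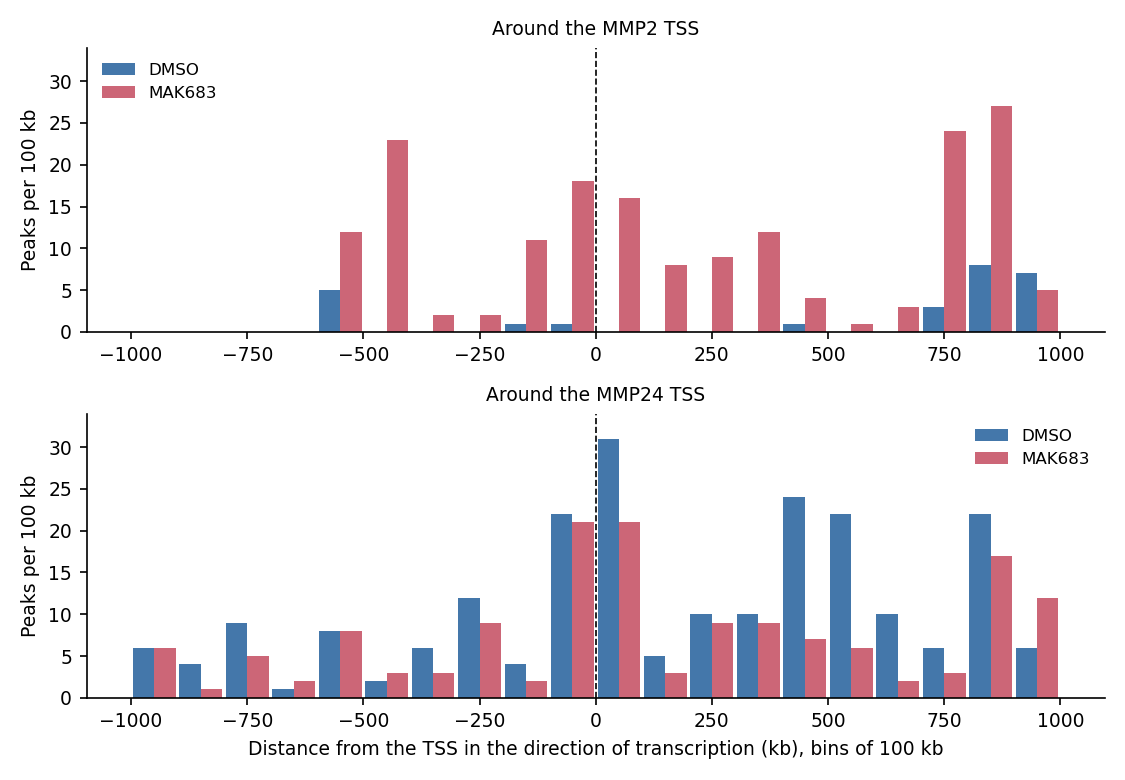
Peaks per 100 kb bin (vertical axis) over 1000 kb on either side of the TSS of MMP2 (top) and MMP24 (bottom), with DMSO in blue, MAK683 in red and the TSS as a dashed line. Around MMP2 15 of 20 bins have more peaks in MAK683, and around MMP24 15 of 20 have fewer.

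MMP9, the gelatinase B gene on chromosome 20, did not resemble MMP2. Its locus held 2 peaks in each library. The tallest was shared and lay in a coding exon 5.36 kb after the TSS, with 1.81 RPM in DMSO (30 tags, 1.22 to 2.58) and 1.42 RPM in MAK683 (26 tags, 0.930 to 2.09), a log2 ratio of −0.34 (−1.10 to 0.41), close to the median of all shared regions. A MAK683-only peak of 8 tags (0.438 RPM), chr20:44637699-44637995, had its summit 252 bases after the TSS. A DMSO-only peak of 7 tags lay at −7.96 kb. The flanks held 72 and 88 peaks, a ratio of 1.22 against 1.24 for chromosome 20.

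MMP24, which encodes a membrane-type enzyme best known from nervous tissue, moved opposite to MMP2. Its locus, chr20:33804493-33864801, held 25 peaks in DMSO and 13 in MAK683, a MAK683 share of 34.2% (19.6 to 51.4, n = 38 peaks). Of 20163 loci, 335 or 1.66% lost 12 peaks or more. Of 849 loci with at least as many peaks in all, 95 had as low a MAK683 share. It had 27 regions, of which 10 were shared, 14 were DMSO only and 3 MAK683 only. The DMSO-only peaks held 7 to 13 tags, and all but 1 lay in introns. The 3 tallest regions were present in both libraries. They had 2.23 RPM in DMSO and 2.24 RPM in MAK683 at 36.6 kb after the TSS (37 and 41 tags, log2 ratio 0.01, −0.63 to 0.65), 2.17 and 1.48 RPM at 42.8 kb (36 and 27 tags, −0.55, −1.27 to 0.17), and 2.35 and 1.59 RPM at 51.4 kb (39 and 29 tags, −0.57, −1.26 to 0.13). The last had its summits past the end of the gene, within 3 kb of the TSS of the antisense gene MMP24OS. Its 39-tag DMSO peak did not touch the locus and entered through merging only. The DMSO peaks that touched a member locus reached 37 tags at most. The flanks showed the same direction, with 120 DMSO and 79 MAK683 peaks, a ratio of 0.658. Of 6319 genes with at least as many flank peaks, 395 or 6.25% had as low a MAK683 share.

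MMP14 and MMP15 had similar peak numbers in both libraries, though not all of their peaks were shared. MMP14 had 9 and 8 peaks and MMP15 had 10 and 11, with 6 of 8 and 7 of 12 regions shared and 2 called in DMSO only at each gene, and the 4 membrane-type loci together held 45 DMSO and 35 MAK683 peaks. At MMP14 the promoter region was wide, chr14:23304289-23306823, and a second tall region 11.9 kb after the TSS had 2.17 RPM in DMSO and 1.53 RPM in MAK683 (36 and 28 tags, log2 ratio −0.50, −1.21 to 0.21). The MMP14 region 1.40 kb after the TSS had 0.904 RPM in DMSO and 0.493 RPM in MAK683 (15 and 9 tags), the lowest log2 ratio of any shared member region, −0.88 (−2.07 to 0.32). At MMP15, 7 of 12 regions lay upstream of the TSS. These included a shared one at −4.92 kb of 1.02 RPM in DMSO and 1.31 RPM in MAK683 (17 and 24 tags, log2 ratio 0.36, −0.54 to 1.26) and MAK683-only peaks of 14 and 16 tags at −3.72 and −2.63 kb.

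MMP16 was unlike the other membrane-type genes in being nearly empty outside its promoter. Over 305 kb on chromosome 8 it held 1 DMSO peak and 3 MAK683 peaks, or 0.327 and 0.982 per 100 kb, against medians of 6.57 and 7.84 over all protein-coding loci. Its flanks held 2 and 3 peaks. The 2 MAK683-only peaks were intronic, 1.19 and 29.9 kb after the TSS, with 10 tags each. The nearer one ended at position 89338647, right beside the shared promoter region, which began at 89338657. Only with this adjoining peak counted did MMP16 meet the rule for gaining peaks. The shared promoter region had 28 tags in DMSO (1.69 RPM, 1.12 to 2.44) and 42 in MAK683 (2.30 RPM, 1.66 to 3.11), the tallest MAK683 peak of any member. The summits within this wide region did not coincide, being at −143 bases from the TSS in DMSO and at −1258 in MAK683. It also lay within 3 kb of the TSS of another annotated gene.

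Taking the promoter as 3 kb on either side of the TSS, 4 members had a peak in DMSO and 8 in MAK683. MMP14, MMP15, MMP16 and MMP24 had one in both libraries, against 70.9% of 20163 genes. MMP1, MMP3, MMP2 and MMP9 had one in MAK683 only, against 7.87% of genes, and no member had one in DMSO only, against 1.84%. MMP10 and MMP13 had none, against 19.4%. MMP10, whose promoter held the AP-1 letters, was thus among the genes without a promoter peak, and MMP14, with a GC box, among those with a peak in both. Over all genes the AP-1 share was 3.13% for promoters with a peak in both libraries, 7.56% for those with a MAK683-only peak and 9.24% for those without a peak. Among the 11 MAK683-only regions of the cluster, 2 (18.2%) held the AP-1 letters within 100 bases of the summit. The share was 6.29% over all MAK683-only regions, and the difference was not tested. With peaks limited to a −log10 q of at least 5, the MAK683 promoters fell to 5 (MMP3, MMP2, MMP14, MMP15 and MMP16), while the 4 DMSO promoters were the same genes. With a window of 10 kb in place of 3 kb, 6 members had a peak in DMSO and 9 in MAK683; MMP1 and MMP9 then had one in both libraries and MMP10 had one in MAK683.

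Promoter heights of the membrane-type genes differed within counting error. The log2 ratio of MAK683 to DMSO was 0.45 at MMP16 (−0.24 to 1.14), −0.09 at MMP14 (1.63 and 1.53 RPM, 27 and 28 tags, −0.85 to 0.68), −0.47 at MMP15 (1.75 and 1.26 RPM, 29 and 23 tags, −1.26 to 0.32) and −0.72 at MMP24 (0.904 and 0.547 RPM, 15 and 10 tags, −1.88 to 0.43). Each interval included 0. Over the 14288 genes with a promoter peak in both libraries the median was −0.46, and 13.5% were higher in MAK683. MMP16 was thus in the upper part of this distribution, with 5.23% of genes at its ratio or above, whereas 17.4% were at or above MMP14, 51.0% at or above MMP15 and 77.4% at or above MMP24. Relative to the median of all shared regions, MMP16 was at 0.78, MMP15 at −0.14 and MMP24 at −0.39, and MMP14 turned from −0.09 to 0.25; on tags without depth scaling MMP14 was at 0.05.

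Over all 27 shared member regions the median log2 height ratio was −0.14 (order-statistic 95% interval −0.47 to 0.08). All 57983 shared regions had a median of −0.33, a general shift towards lower MAK683 heights, and relative to it the member median turned positive, at 0.19. Of the 27, 9 were higher and 18 lower in MAK683, against 23.8% higher over all shared regions, and after that centring 16 were higher and 10 lower. None was 2-fold higher, against 0.873% of shared regions, and none was 2-fold lower, against 5.54%. No interval of a shared member region excluded 0. The remaining member regions were called in 1 library only, 20 in DMSO and 47 in MAK683. Of the 94 regions, 47 lay in introns of the canonical transcript, 22 upstream of the TSS, 17 in parts covered only by a longer transcript, 4 in UTR exons, 3 in coding exons and 1 downstream. In addition, 21 came within 3 kb of the TSS of another gene, 8 of them at MMP2 and 6 at MMP24.

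**Figure D5:**
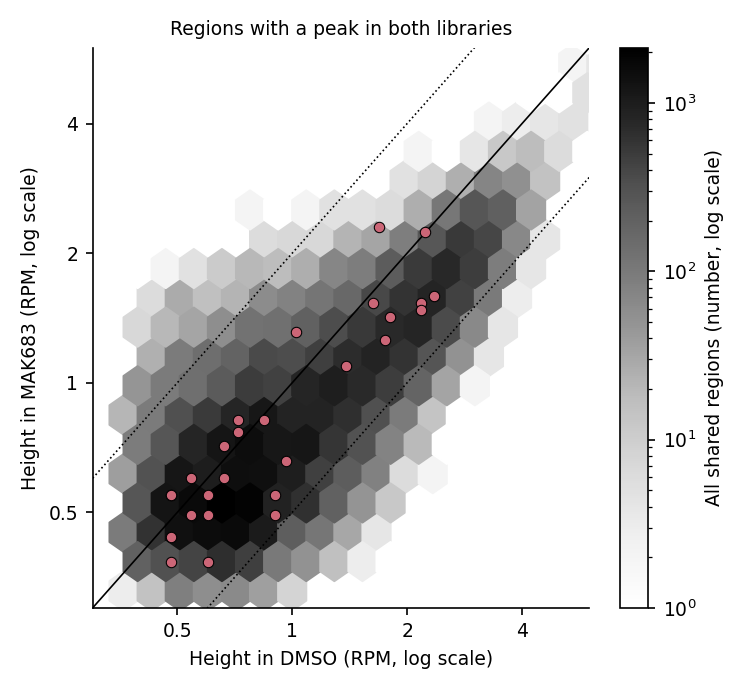
Height in MAK683 against height in DMSO, in RPM on log axes, for the 27 shared member regions (red circles, some coinciding) over the density of all 57983 shared regions (grey); the solid line marks equal heights and the dotted lines a 2-fold difference. All 27 lie between the dotted lines, 9 above and 18 below the solid line.

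Low peaks made up much of the difference between the libraries. Over the whole series the ratio of MAK683 to DMSO peaks was 1.41, but 1.02 for peaks of at least 0.5 RPM and 0.965 for those with a −log10 q of at least 5. MMP2 kept its difference under both limits, with 1 DMSO peak against 18 and 14 in MAK683. The cluster kept 2 DMSO peaks against 6 and 3. MMP24 had 20 against 7 and 16 against 5.

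Genes related to the members were described by fixed lists. Of 13 other matrix metalloproteinase genes, 5 had a promoter peak in both libraries, 2 in MAK683 only, none in DMSO only and 6 in neither. The last include MMP11, in the stretch without peaks around SMARCB1. Over all 20163 genes these shares were 70.9%, 7.87%, 1.84% and 19.4%. Among the loci of the 13 genes, 3 met the rule for more peaks in MAK683 (MMP20 with 3 and 10 peaks, MMP26 with 1 and 9, MMP27 with 0 and 4) and 2 met it for DMSO (MMP21 with 9 and 3, MMP23B with 4 and 0). Of all loci, 17.8% met it for MAK683 and 14.1% for DMSO. MMP20 and MMP27 belong to the same chromosome 11 run as the cluster members. The 11 inhibitors and activators comprised the tissue inhibitors TIMP1 to TIMP4, the membrane-anchored inhibitor RECK, the plasminogen system genes PLAU, PLAT, PLAUR and PLG, the propeptide-cutting protease FURIN, and BSG, an inducer of MMP expression. Of these, 7 had a promoter peak in both libraries, with log2 ratios from −0.95 at RECK (28 and 16 tags) to 0.33 at TIMP1 (13 and 18 tags) and a median of −0.42, near the −0.46 of all genes. The intervals of RECK (−1.83 to −0.06) and PLAUR (log2 ratio −0.83, −1.54 to −0.12) excluded 0 and included that median. The −0.42 was the value of FURIN, whose tallest promoter peaks in the libraries did not overlap. Their summits were 41 bases after the TSS in MAK683 and 2445 in DMSO. TIMP4 and PLAT had a promoter peak in MAK683 only, and TIMP3, whose product binds to the matrix, had no peak in either library over 71.3 kb. By locus, PLAT (1 and 3 peaks) and PLG (2 and 9) met the rule for MAK683 and TIMP2 (14 and 6) for DMSO.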

How the data were processed

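ATAC-seq was performed on G401 cells treated for 3 days with DMSO or MAK683, with 1 library each. The study's methods name Trim-galore for adapter removal and Bowtie2 for alignment, to hg19. Narrow peaks were called separately per library with MACS 2.1.1.20160309 per the file headers, without a control or a local background, with single-end tags shifted by 100 bp against their direction and extended to 200 bp, 1 tag kept per position and a q cutoff of 0.05; the methods name another version. Without a local background, regional differences in coverage or copy number were not corrected. The deposited pileup is a signal in whole tags, unscaled for depth. The authors' fold enrichment is a ratio to a genome-wide background, and the deposited −log10 p and −log10 q also grow with depth; these entered only as filters or alternative scales.

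Autosomal, X and Y peaks were kept, with heights scaled to 1000000 filtered tags. The TSS was that of the Ensembl canonical transcript in GENCODE 44 lifted to GRCh37, the build of the peaks. Peaks overlapping by 1 bp or more formed a region, represented by the tallest peak of each library, also where that peak lay outside the locus. The promoter height was the tallest peak overlapping the 3 kb on either side of the TSS. Intervals are 95%: exact Poisson for heights, Clopper-Pearson for shares, log-normal from Poisson error for log2 ratios, and order statistics for medians. They cover counting error only, since each group had 1 library. Without molecular identifiers, PCR copies of a molecule could be recognised by position only, with 1 tag kept per position. Motifs were searched in GRCh37, on both strands. The promoter sequences of other members are not reported here. The region and interval code was tested on simulated data. Every member was reported, and single regions were named by height, height ratio, distance from the TSS or, for a printed sequence, a motif match. The members, lists and rules were chosen with earlier results of these data known, and the rule for loci gaining peaks after their counts were seen, as were its stricter peak limits. Alternatives were stricter peak limits, narrower and wider windows, other overlap rules and other height scales. Peaks on other sequences were not used. Python 3.11.15, numpy 2.4.6, pandas 2.3.3, scipy 1.17.1 and matplotlib 3.10.9 were used.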

Additional observations from a re-analysis of the deposited data

How the results depend on the processing

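Of 81 values recomputed under another setting, 54 stayed within 1.5 times the reported count or within the interval of the reported ratio, and 27 moved further. When only peaks of −log10 q 5 or more were kept, the member loci held 32 DMSO and 37 MAK683 peaks, the scattered loci 30 and 34, the cluster 3 in MAK683, and 5 members had a MAK683 promoter peak; 1 member, MMP2, then met the rule for more peaks in MAK683 and 1, MMP24, that for DMSO. With at least 0.5 RPM, the members held 51 MAK683 peaks and the cluster 6, and 3 members met the rule for MAK683 and 1 that for DMSO. The rule under these limits was added after seeing the data. Within 10 kb of the TSS alone, the members held 26 and 42 peaks and the scattered genes 24 and 30, and MMP2 had 0 and 7. Centring on all shared regions moved the median log2 ratio of the shared member regions to 0.19; 6 other settings left it between −0.16 and 0. No paired analysis was possible because each group had 1 library, and for the same reason no library could be left out. At the depth of these libraries, no height difference at any of the 27 shared member regions exceeded its counting interval.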
